A study of Mus musculus with 6 samples.

Results

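Insulin-like growth factor (IGF) ligands, their receptors and the binding proteins of the family (IGFBPs) were examined in RNA-seq of mouse embryonic fibroblasts (MEFs). The cells were parental or had been collected after passage through narrow pores. The 10 genes, Igf1, Igf2, Igf1r, Igf2r and Igfbp2 to Igfbp7, were taken by gene identifier from a table of 55335 genes, and all 10 were found in it. Wild-type MEFs, a fibroblast line obtained from another laboratory, were grown in medium with fetal bovine serum. Parental cells formed the control group (Ctrl), and cells collected after migrating within 15 h through a membrane with 3 μm pores formed the confined group (Confine). Each group had 3 deposited columns of raw read counts, but 2 of the Confine columns, replicates 1 and 2, held the same count for each of the 55335 genes. These 2 columns entered as 1 sample, called Confine replicate 2. The comparison therefore rested on 3 Ctrl and 2 Confine libraries, 5 in all. The labels do not say that the replicates were separate cultures, so p-values measure only the spread between these libraries, which may be technical. Passage through the pores cannot be told apart from 15 h on the membrane or from selection of the cells that migrated. Whether the sequenced cells had serum on both sides of the membrane is not given in the sources used here. For a migration assay with another pore size, the study's methods place serum below the membrane only.

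IGF1 and IGF2 are secreted growth factors that bind the IGF1 receptor, a tyrosine kinase that signals through insulin receptor substrates to PI3K and AKT. The IGF2 receptor, also the mannose 6-phosphate receptor, takes up IGF2 and carries it to lysosomes. IGFBPs hold IGFs outside the cell and limit their access to the receptor, and proteases that cut IGFBPs release the ligand. Fibroblasts are a known source of both IGFs and IGFBPs.

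The libraries held between 22287210 and 32537550 counts. Counts were scaled by the TMM method to normalized CPM, a count relative to the scaled total of its library, and 15881 genes with enough counts were tested with edgeR's quasi-likelihood test and Benjamini-Hochberg adjustment over all of them. At an adjusted p under 0.05, 2035 tested genes (12.8%) were higher and 1619 (10.2%) lower in Confine, and with library size alone as the scaling 1444 were higher and 2805 lower. Without Ctrl replicate 1, 1564 were higher and 1186 lower, and without Ctrl replicate 2, 2411 were higher and 2015 lower. The numbers rested in part on single libraries, since 1196 were higher and 858 lower without Confine replicate 3, and 850 were lower without Confine replicate 2. The median log2 fold change of all tested genes was -0.0021, and it moved to -0.21 with library size alone. Of 12 fibroblast markers, Col1a1, Col1a2, Vim and Fn1 were abundant and Thy1, Lum and Fap had at most 2 counts in any library. Dcn had 2, 0 and 0 counts in Ctrl and 27 and 3 in Confine. The summed level of these markers was 8738 to 9595 CPM in Ctrl and 15722 to 16497 CPM in Confine, and 5 of the 8 tested ones passed as higher. For Pdgfrb and S100a4 both Confine libraries lay below all Ctrl libraries, but neither passed (log2 fold changes -0.36 and -0.28).

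Among the IGF genes, the binding protein genes Igfbp4 and Igfbp7 were upregulated in Confine by 5.85-fold and 2.37-fold, both receptor genes by about 1.6-fold, and Igf1 was downregulated by 2.20-fold. Of the 10 genes, 8 passed the filter on low counts, and 4 of these 8 (50%) were higher at an adjusted p under 0.05, beside 12.8% of all tested genes. Only Igf1 was lower, and this 1 of 8 (12.5%) was near the 10.2% of all tested genes. In either direction, 5 of the 8 passed, beside 23.0% of all tested genes. The genes were chosen with earlier results of these data known, so these shares do not test the group. Igfbp2, Igfbp3 and Igfbp6 did not pass the test, and Igf2 and Igfbp5 were too low to be tested. Igfbp4 alone also passed the fold cutoff used in the study, an absolute log2 fold change above 1.5, which 8.00% of all tested genes passed, 4.89% as higher and 3.11% as lower. The Confine libraries lay above every Ctrl library for 5 of the 8 genes and below every one for 1, beside 25.9% and 23.6% of all tested genes (49.5% for either). The median log2 fold change of the 8 genes was 0.57. The number of higher genes was 2 without Ctrl replicate 1 or without Confine replicate 3, and the number of lower genes was 0 without Confine replicate 3 and 2 without Ctrl replicate 2. Without Confine replicate 3, 1 of the 8 genes was lower at an unadjusted p under 0.05, while DESeq2 and limma-voom on all 5 libraries each called 1.

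The windows before the start sites of Igfbp4 and Igfbp7, the members with the smallest p-values, are given with the matches of 2 kinds of motif, as RefSeq places these genes in mouse GRCm38.p6. Each run is 250 bases long, is written 5′ to 3′ on the gene's strand and ends 1 base before the start. Capitals mark a TATA box (TATAAA) and hypoxia response cores (ACGTG or GCGTG), searched on both strands, so that CACGC is GCGTG on the other strand. The Igfbp4 window lies at chr11:99040994-99041243 on the plus strand and the Igfbp7 window at chr5:77408046-77408295 on the minus strand.
Igfbp4: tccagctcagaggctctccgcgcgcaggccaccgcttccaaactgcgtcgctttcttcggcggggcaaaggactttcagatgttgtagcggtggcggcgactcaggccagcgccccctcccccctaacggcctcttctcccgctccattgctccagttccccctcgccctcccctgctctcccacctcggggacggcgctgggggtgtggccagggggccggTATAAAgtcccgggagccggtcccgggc
Igfbp7: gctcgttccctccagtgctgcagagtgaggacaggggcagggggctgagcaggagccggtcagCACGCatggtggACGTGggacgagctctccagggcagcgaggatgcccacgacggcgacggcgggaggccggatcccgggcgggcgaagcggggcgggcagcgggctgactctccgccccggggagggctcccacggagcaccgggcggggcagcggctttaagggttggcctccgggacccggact
The Igfbp4 window had 1 TATAAA close to its end and 69.2% G and C. The Igfbp7 window had no TATAAA, 1 ACGTG, 1 GCGTG and 74.0% G and C. It also had 4 GC boxes (GGGCGG, both strands, not in capitals), which the Igfbp4 window lacked and 32.7% of all windows held. Among all 32851 RefSeq windows of this length, 12.4% held TATAAA, 16.6% ACGTG and 28.2% GCGTG. All 10 genes had a window, 14 windows in total, and TATAAA was found also before Igfbp6. Hypoxia response cores were also found before Igf2r (4 ACGTG and 2 GCGTG), before 1 start of Igfbp2 (2 of each), before Igf1r (3 GCGTG), Igfbp3 (2 GCGTG) and Igf1 (1 GCGTG) and before 1 start of Igf2 (1 ACGTG). The FOXO motif GTAAACA, which 3.17% of all windows held, had no match in the 14 windows. These matches describe letters in the windows, and binding of a factor was not measured.

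**Figure D1:**
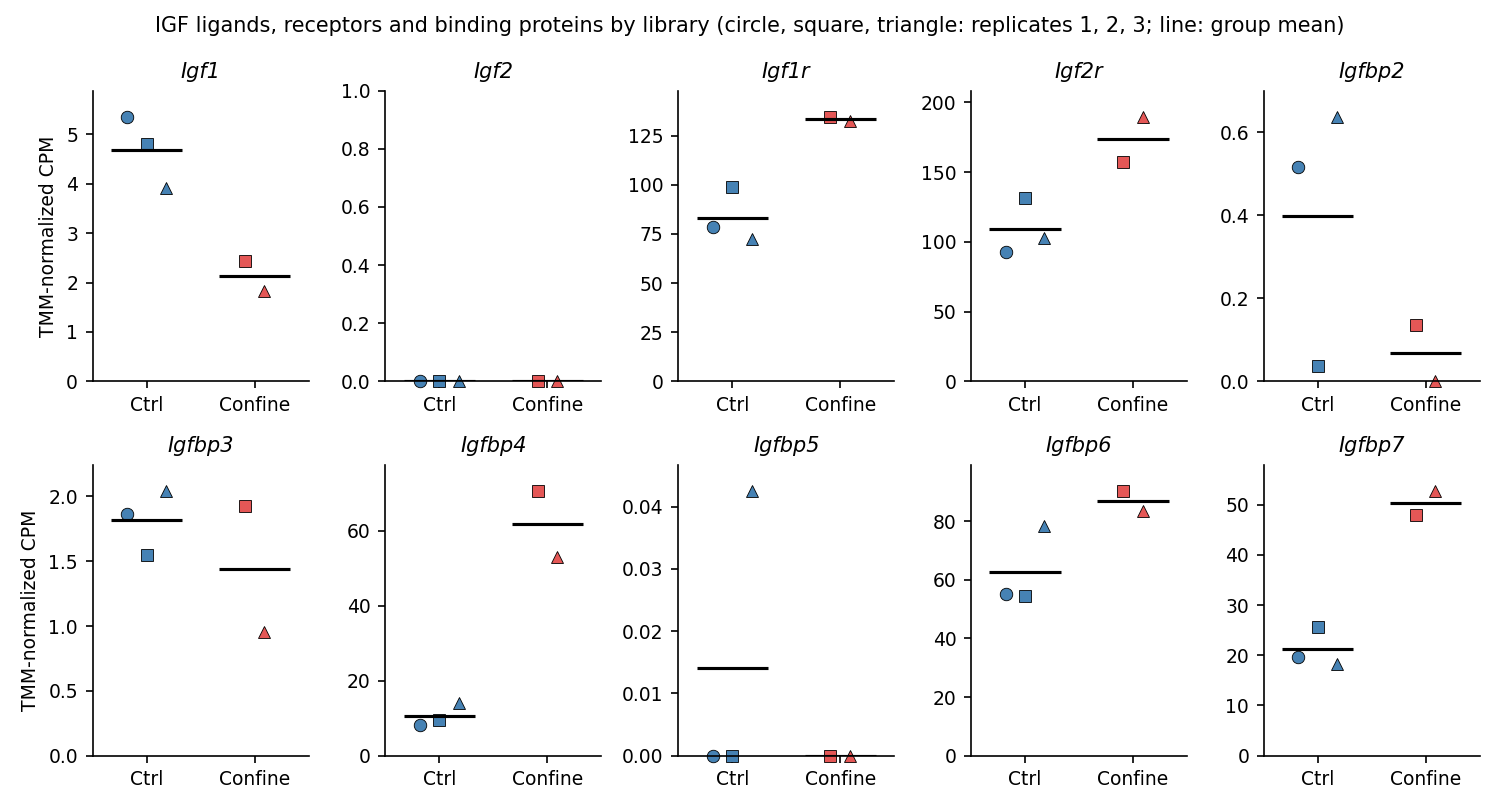
TMM-normalized CPM of the 10 IGF genes (linear axes starting at 0, a scale of its own in each panel) in the 3 Ctrl libraries in blue and the 2 Confine libraries in red, with a line at each group mean. The Confine points lie above all Ctrl points for Igf1r, Igf2r, Igfbp4, Igfbp6 and Igfbp7 and below them for Igf1, and Igf2 is at 0 in all 5 libraries.

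Igf1 (ENSMUSG00000020053.18, GRCm38 chr10:87858265-87937042, plus strand) encodes a secreted ligand of the IGF1 receptor. It had 155, 127 and 92 counts in Ctrl and 72 and 46 counts in Confine. Both Confine libraries were below all Ctrl libraries, and the nearest pair was Ctrl replicate 3 at 3.91 CPM and Confine replicate 2 at 2.43 CPM. The level was 4.69 ± 0.727 CPM (SD, n = 3) in Ctrl and 2.13 ± 0.428 CPM (SD, n = 2) in Confine. By edgeR's test the log2 fold change was -1.14 (SE 0.30), with a 95% interval from -1.77 to -0.50 and an adjusted p of 0.0103. Without Confine replicate 3 it was -0.95 and no longer passed (adjusted p = 0.127). Igf1os, on the opposite strand, shares 0 exon bases with Igf1 and had 1 count in Ctrl replicate 2 and 4 in Confine replicate 2. In bulk RNA, fewer cells that express a gene and less RNA per cell cannot be told apart.

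Igf2 (ENSMUSG00000048583.16, chr7:142650766-142666816, minus strand), the other ligand, had 0 counts in all 5 libraries. A floor of 3 counts allows a level of up to between 0.101 and 0.127 CPM, depending on the library, and covers counting error only. The annotation places 3596 of the 5723 exon bases of Igf2 (62.8%) in Gm49394 on the same strand, where reads may be left out of counting as ambiguous. Gm49394 was at 0 in all libraries too. The other 2127 exon bases of Igf2 lie outside it, and the count of 0 for Igf2 covers them. Mir483, a microRNA gene within Igf2, was at 0, and the antisense gene Igf2os, which shares 98 exon bases with Igf2, had 1 count in Ctrl replicate 1 and none in the others.

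The receptor gene Igf1r (ENSMUSG00000005533.10, chr7:67952827-68233668, plus strand), which encodes the tyrosine kinase that both ligands activate, had 2278, 2614 and 1704 counts in Ctrl and 3984 and 3344 in Confine. On the normalized scale the Confine libraries lay close together and above the Ctrl libraries, with 83.3 ± 13.7 CPM (SD, n = 3) in Ctrl and 134 ± 1.30 CPM (SD, n = 2) in Confine. The difference on the log2 scale was 0.68 (SE 0.18, 95% interval 0.29 to 1.07, adjusted p = 0.0114 by edgeR). The call was not firm. The adjusted p was 0.0510 without Ctrl replicate 1, 0.0576 without Ctrl replicate 3, 0.0918 without Confine replicate 2 and 0.0883 without Confine replicate 3. Scaled by library size alone, it was 0.47 (adjusted p = 0.0707).

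Igf2r (ENSMUSG00000023830.14, chr17:12682406-12769664, minus strand) encodes the receptor that clears IGF2 and sorts lysosomal enzymes. It had 2686, 3481 and 2420 counts in Ctrl and 4662 and 4779 in Confine, again without overlap of the groups. The level was 109 ± 20.1 CPM (SD, n = 3) in Ctrl and 173 ± 22.8 CPM (SD, n = 2) in Confine, a log2 fold change of 0.67 (SE 0.19, 95% interval 0.27 to 1.07, adjusted p = 0.0161 by edgeR). The call was lost without Ctrl replicate 1 (adjusted p = 0.0898), without Confine replicate 3 (0.53, adjusted p = 0.216) and with library size alone (0.46, adjusted p = 0.0902). Airn, a noncoding RNA transcribed antisense to Igf2r, lies across this gene but shares 0 exon bases with it. Airn had 133, 208 and 143 counts in Ctrl and 350 and 264 in Confine (log2 fold change 0.85, SE 0.25, adjusted p = 0.0172). It did not pass without Ctrl replicate 1 (adjusted p = 0.102), Confine replicate 2 (0.143) or Confine replicate 3 (0.0687), nor with library size alone (0.0701). The strand setting of the counting is not given in the sources used here, so reads of the pair might not be separated.

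Igfbp4 (ENSMUSG00000017493.12, chr11:99041244-99054392, plus strand) encodes a binding protein known mainly as an inhibitor of IGF action that is cut by the protease PAPPA. It had 237, 249 and 333 counts in Ctrl and 2089 and 1333 in Confine, a level of 10.6 ± 3.15 CPM (SD, n = 3) against 61.7 ± 12.5 CPM (SD, n = 2). The lowest Confine library, at 52.9 CPM, was far above the highest Ctrl library, at 14.1 CPM. The log2 fold change was 2.55 (SE 0.23, 95% interval 2.07 to 3.03, adjusted p = 1.90e-07 by edgeR).

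Igfbp7 (ENSMUSG00000036256.13, chr5:77349240-77408041, minus strand) encodes a secreted protein of the same family that binds IGFs weakly and is deposited in the matrix around vessels. Ctrl replicates had 571, 681 and 430 counts, and the Confine libraries 1422 and 1328. The level was 21.2 ± 3.95 CPM (SD, n = 3) in Ctrl and 50.3 ± 3.31 CPM (SD, n = 2) in Confine, with the groups well apart. The log2 fold change was 1.24 (SE 0.19, 95% interval 0.84 to 1.65, adjusted p = 9.97e-05 by edgeR). Polr2b on the opposite strand shares 85 of the 1209 exon bases of Igfbp7 (7.03%), and it had 694, 584 and 467 counts in Ctrl beside 587 and 542 in Confine (log2 fold change -0.09, adjusted p = 0.791). Gm34648, an antisense gene that lies across Igfbp7 but shares 0 exon bases with it, had 5, 13 and 11 counts in Ctrl and 43 and 30 in Confine (log2 fold change 1.82, SE 0.53, adjusted p = 0.0175). Gm34648 did not pass without Ctrl replicate 1 (1.45, adjusted p = 0.0794), Confine replicate 2 (1.66, adjusted p = 0.149) or Confine replicate 3 (1.95, adjusted p = 0.0706), and without a known strand setting its reads might not be separated from those of Igfbp7.

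Igfbp6 (ENSMUSG00000023046.6, chr15:102144362-102149511, plus strand), a binding protein that prefers IGF2, had 1602, 1446 and 1848 counts in Ctrl and 2674 and 2103 in Confine. The level was 62.8 ± 13.6 CPM (SD, n = 3) in Ctrl and 86.9 ± 4.84 CPM (SD, n = 2) in Confine. Both Confine libraries were above the Ctrl libraries, but Ctrl replicate 3, at 78.5 CPM, came near Confine replicate 3, at 83.4 CPM. The log2 fold change of 0.47 (SE 0.20, 95% interval 0.056 to 0.88) did not pass (adjusted p = 0.0972 by edgeR), and it was 0.64 without Ctrl replicate 3 and then passed (adjusted p = 0.0279).

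The other binding protein genes were low. Igfbp3 (ENSMUSG00000020427.11, chr11:7206086-7213923, minus strand), which encodes the main IGF carrier of serum, had 54, 41 and 48 counts in Ctrl and 57 and 24 in Confine. Its groups overlapped, at 1.82 ± 0.249 CPM (SD, n = 3) and 1.44 ± 0.687 CPM (SD, n = 2), and its log2 fold change of -0.33 (SE 0.40) had a 95% interval from -1.16 to 0.51 (adjusted p = 0.614 by edgeR). The estimate was 0.082 without Confine replicate 3 and -0.93 without Confine replicate 2, and neither passed. Igfbp2 (ENSMUSG00000039323.18, chr1:72824503-72852474, plus strand) had 15, 1 and 15 counts in Ctrl and 4 and 0 in Confine. The log2 fold change of Igfbp2, -2.39 (SE 1.09, 95% interval -4.68 to -0.09), did not pass (adjusted p = 0.129), and it was -2.92 and passed without Ctrl replicate 2 (adjusted p = 0.0284). Without Confine replicate 2, which leaves no Confine count, it was -6.38 (adjusted p = 0.122), a value that depends on the prior count, and without Confine replicate 3 it was -1.52 (adjusted p = 0.534). Igfbp5 (ENSMUSG00000026185.8, chr1:72857932-72874884, minus strand), the neighbour of Igfbp2, had 1 count in Ctrl replicate 3 and 0 in the other libraries, which is under the floor.

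**Figure D2:**
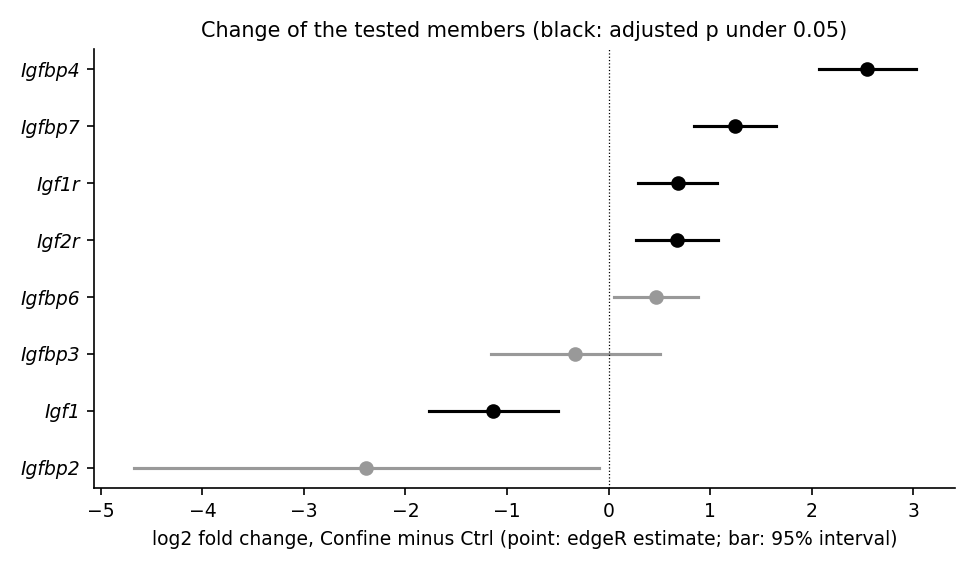
Log2 fold change of Confine over Ctrl (horizontal axis) for the 8 tested IGF genes, with bars for the 95% interval of each estimate without adjustment, in black for an adjusted p under 0.05 and grey for the others. Igfbp4 (2.55) and Igfbp7 (1.24) lie farthest to the right, Igf1 (-1.14) lies to the left of 0, and Igfbp2 has the widest interval.

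To set genes side by side, CPM was divided by exon length in kb. In Ctrl the levels ran from Igfbp6 at 56.5 CPM per kb through Igfbp7 (17.6), Igf2r (11.7), Igf1r (4.96), Igfbp4 (2.40), Igfbp3 (0.581), Igf1 (0.473) and Igfbp2 (0.215) to Igfbp5 (0.0024) and Igf2 (0). The libraries of neighbours in this order did not overlap, except for Igfbp3 with Igf1 and Igfbp5 with Igf2. In Confine, Igfbp4 at 14.0 CPM per kb stood above Igf1r at 7.96 CPM per kb, while the order of the other genes with a level above the floor was that of Ctrl. Igfbp6 remained the highest, at 78.1 CPM per kb, followed by Igfbp7 at 41.6 and Igf2r at 18.6 CPM per kb.

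The summed level of the 6 IGFBP genes was 68.8, 73.0 and 89.9 CPM per kb in Ctrl and 138 and 131 CPM per kb in Confine. Both Confine sums were above the Ctrl sums, a log2 difference of 0.81, with an exact two-sided permutation p of 0.1, the smallest that 3 against 2 libraries allow. Igfbp6 made up 72.7 ± 5.64% of the sum in Ctrl (SD, n = 3) and 58.2 ± 1.20% in Confine (SD, n = 2). The share of Igfbp4 was 3.06 ± 0.451% in Ctrl and 10.4 ± 1.74% in Confine, and the groups did not overlap for either share (exact permutation p = 0.1 each). For Igfbp7 the shares were 23.2 ± 6.18% and 31.1 ± 3.13%, and the groups overlapped (exact permutation p = 0.3).

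**Figure D3:**
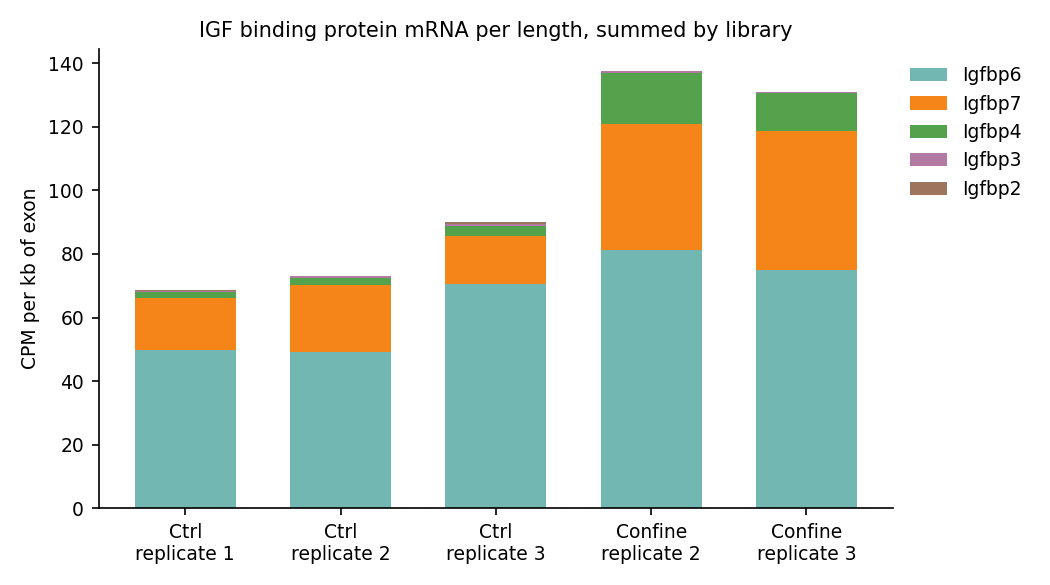
Stacked bars of the normalized CPM per kb of exon of the IGFBP genes in each of the 5 libraries, with the vertical axis starting at 0 and Igfbp5, at or near 0, not drawn. Igfbp6 is the largest part of every bar, and the Confine bars reach 138 and 131 CPM per kb against at most 89.9 CPM per kb in Ctrl.

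Genes of proteases reported to cut IGFBPs or to process IGFs, and of inhibitors of such proteases, changed in both directions. Of 17 listed genes, 16 were tested, and 7 (43.75%) were higher and 4 (25%) lower, beside 12.8% and 10.2% of all tested genes. All gene lists here were chosen with earlier results of these data known, so such shares are descriptive only. The median log2 fold change of the list was 0.55. The genes for both pappalysins, metalloproteases that cut IGFBP4 or IGFBP5, were downregulated. Pappa had 531, 395 and 322 counts in Ctrl and 58 and 87 in Confine (log2 fold change -2.54, SE 0.28, adjusted p = 2.33e-06 by edgeR). Pappa2 had 54, 42 and 30 counts in Ctrl and 12 and 4 in Confine (log2 fold change -2.44, SE 0.54, adjusted p = 0.00253). In neither gene did the groups overlap.

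The stanniocalcins, secreted glycoproteins that inhibit the pappalysins, were upregulated. Stc1 had 33, 16 and 24 counts in Ctrl and 1810 and 1379 in Confine, which is 0.921 ± 0.281 CPM (SD, n = 3) against 57.9 ± 4.53 CPM (SD, n = 2). This was a log2 fold change of 5.96 (SE 0.25, adjusted p = 1.90e-11 by edgeR). Stc2 had 543, 369 and 410 counts in Ctrl and 759 and 819 in Confine, with a log2 fold change of 0.80 (SE 0.20, adjusted p = 0.00666), and it did not pass without Confine replicate 3 (0.62, adjusted p = 0.163). With 2 groups, any higher gene and any lower gene split the libraries in the same way, so a link between these genes was not tested. Protein levels and IGFBP cleavage were not measured here.

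**Figure D4:**
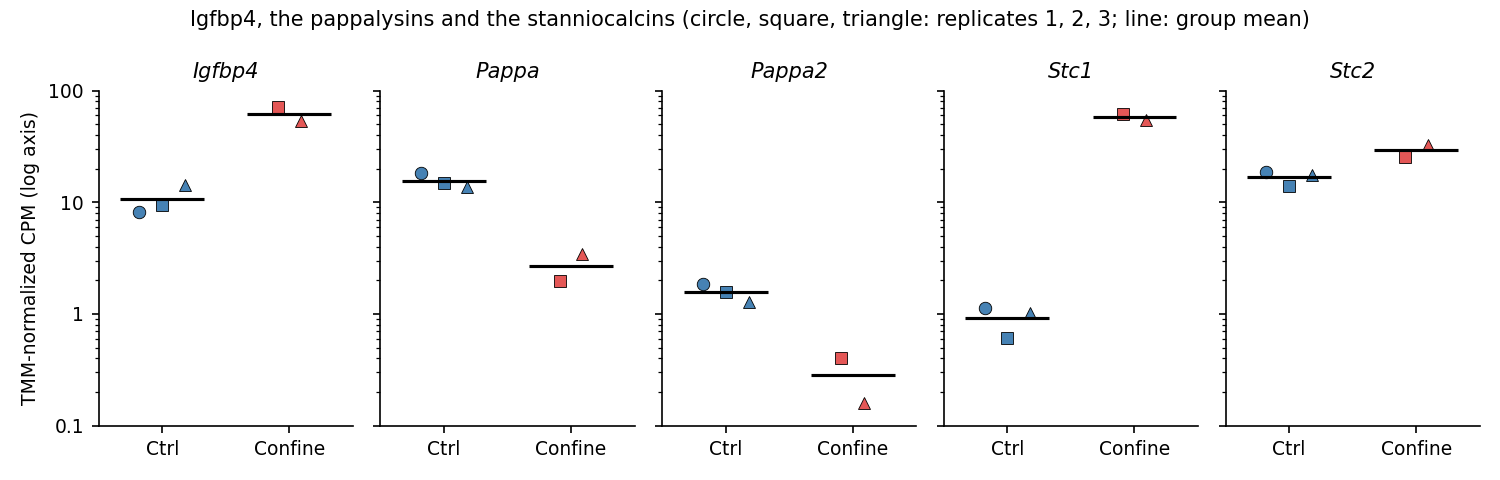
TMM-normalized CPM (log axis) of Igfbp4, Pappa, Pappa2, Stc1 and Stc2 in the 3 Ctrl and 2 Confine libraries, with a line at each group mean. The groups are separate in all 5 panels, as they are for 49.5% of all tested genes. Confine is higher for Igfbp4, Stc1 and Stc2 and lower for Pappa and Pappa2.

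Other proteases of the list that passed as higher were Mmp3, Mmp9, Plat, Adam12 and Furin. Mmp3, a matrix metalloprotease, had 1089 to 1467 counts in Ctrl and 110128 and 48232 in Confine (log2 fold change 5.88, SE 0.26). Mmp9, a gelatinase, and Plat, the tissue plasminogen activator, had log2 fold changes of 4.18 (SE 0.32) and 2.19 (SE 0.18). The log2 fold change of Adam12, a membrane metalloprotease, was 1.88 (SE 0.28) and that of Furin, a proprotein convertase, 0.68 (SE 0.18, adjusted p = 0.0105). Furin did not pass without Ctrl replicate 3 (0.61, adjusted p = 0.0502), without Confine replicate 2 (0.53, adjusted p = 0.155) or with library size alone (0.47, adjusted p = 0.0649). The convertase gene Pcsk6 (-2.50, SE 0.32) and Adamts1 (-1.62, SE 0.26), a secreted metalloprotease, passed as lower. Htra1, Adam9, Mmp2, Ctsd and Plau did not pass, and Adam28 was at 0 in all libraries.

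The signalling chain downstream of the receptors was examined next. Of 30 genes from the receptor relatives and docking proteins to PI3K, AKT and mTOR, 28 were tested, and 3 (10.7%) were higher and 3 (10.7%) lower, shares near the 12.8% and 10.2% of all tested genes, with a median log2 fold change of 0.049. Pik3r3, a regulatory subunit of PI3K, had 210, 238 and 186 counts in Ctrl and 69 and 28 in Confine, without overlap (log2 fold change -2.21, SE 0.32, adjusted p = 4.79e-05 by edgeR). The number that passed was 4 without Ctrl replicate 1, where 1564 of all tested genes were higher and 1186 lower. It was 10 with library size alone, where 1444 of all tested genes were higher and 2805 lower.

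Among the receptor relatives and docking proteins, Insr, the insulin receptor gene, had 443, 357 and 295 counts in Ctrl and 575 and 627 in Confine (log2 fold change 0.68, SE 0.20, adjusted p = 0.0187). It did not pass without Ctrl replicate 3 (adjusted p = 0.0571), without Confine replicate 3 (0.49, adjusted p = 0.280) or with library size alone (0.48, adjusted p = 0.0932). Irs1, which docks PI3K to the active receptor, had 172, 128 and 136 counts in Ctrl and 111 and 56 in Confine (log2 fold change -0.88, SE 0.29, adjusted p = 0.0380). The Irs1 call was lost without Ctrl replicate 1 (adjusted p = 0.107), Ctrl replicate 3 (0.0617) and Confine replicate 3 (-0.56, adjusted p = 0.357). For Irs2, the related docking protein gene, the log2 fold change was -0.43 (SE 0.22, adjusted p = 0.189), and it was -0.62 and passed without Ctrl replicate 3 (adjusted p = 0.0436). It also passed with library size alone (-0.64, adjusted p = 0.0457).

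Further along the chain, Rictor, which encodes a subunit of an mTOR complex, was higher (log2 fold change 0.79, SE 0.20, adjusted p = 0.00752), and the kinase gene Akt2 was lower (-0.62, SE 0.19, adjusted p = 0.0217). Without Confine replicate 3 neither passed, with log2 fold changes of 0.58 (adjusted p = 0.191) and -0.75 (adjusted p = 0.0760). Akt2 also did not pass without Ctrl replicate 1 (adjusted p = 0.0814) or Confine replicate 2 (-0.49, adjusted p = 0.236). Akt1, Mtor and Grb10 were among the 22 genes that did not pass.

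Of the factors that act on IGF mRNAs or share their imprinted regions, 5 of 7 tested genes (71.4%) passed, each higher in Confine. The share of all tested genes that were higher was 12.8%. This list of 11 was also chosen with earlier results known, so its share is descriptive only. Its median log2 fold change was 0.59 over the tested genes. H19, the noncoding RNA imprinted opposite to Igf2, had 105, 38 and 54 counts in Ctrl and 563 and 1039 in Confine (log2 fold change 3.61, SE 0.33, adjusted p = 3.15e-07 by edgeR), while Igf2 itself was at 0. Hmga2, a chromatin protein gene, had a log2 fold change of 1.11 (SE 0.22, adjusted p = 9.41e-04), which was 0.80 without Confine replicate 2 and then did not pass (adjusted p = 0.0540). Plag1, a transcription factor known to act on Igf2 (0.59, SE 0.20, adjusted p = 0.0373), and Igf2bp2, an IGF2 mRNA-binding protein gene (0.53, SE 0.18, adjusted p = 0.0407), were closer to the threshold. Neither passed without Ctrl replicate 1 (adjusted p = 0.166 and 0.0694), without Confine replicate 3 (0.500 and 0.130) or with library size alone (0.171 and 0.199). Igf2bp2 also failed without Ctrl replicate 3 (adjusted p = 0.0963), without Confine replicate 2 (0.273) and with no filter on low counts (0.0583). The number that passed was 2 without Ctrl replicate 1, where 1564 of all tested genes were higher and 1186 lower. Igf2bp1 and Igf2bp3 did not pass, with log2 fold changes of -0.11 (SE 0.19) and -0.23 (SE 0.19).

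Of 15 other genes, which encode proteins with an IGFBP domain or the acid labile subunit, 11 were tested, 1 (9.09%) was higher and 3 (27.3%) lower, beside 12.8% and 10.2% of all tested genes, and the median log2 fold change was -0.26. Ccn2, a matrix protein also known as connective tissue growth factor, had 282, 134 and 124 counts in Ctrl and 960 and 786 in Confine (log2 fold change 2.24, SE 0.25, adjusted p = 2.64e-06 by edgeR). The related Ccn5 was lower (-1.33, SE 0.19, adjusted p = 4.07e-05), as were Kazald1 (adjusted p = 6.90e-04) and Crim1 (-0.64, SE 0.21, adjusted p = 0.0366). Crim1 did not pass without Ctrl replicate 2 (-0.41, adjusted p = 0.0616), Confine replicate 2 (adjusted p = 0.213) or Confine replicate 3 (adjusted p = 0.186). Igfbp1, the remaining gene of the classical family, Igfbpl1 and Esm1 were at 0 in all 5 libraries, and Igfals, the acid labile subunit gene, had between 1 and 11 counts and did not pass.

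FOXO transcription factors are kept out of the nucleus by AKT, and their known targets include Insr and Irs2, which are also in the signalling list. Of 22 FOXO factors and targets, 21 were tested, 8 (38.1%) were higher and 3 (14.3%) lower, beside 12.8% and 10.2% of all tested genes. The lower share was near the background, and the median log2 fold change was 0.35. Since this list too was chosen with earlier results known, its shares are descriptive only. Foxo3 had 1855, 3077 and 1577 counts in Ctrl and 9060 and 6605 in Confine (log2 fold change 1.78, SE 0.23, adjusted p = 1.23e-05 by edgeR). Ccng2, a cyclin gene associated with cell cycle arrest, had 270, 460 and 319 counts in Ctrl and 2189 and 2006 in Confine (log2 fold change 2.52, SE 0.22, adjusted p = 1.66e-07). Trim63, a muscle ubiquitin ligase gene, was lower with 12, 14 and 8 counts against 1 and 0 (adjusted p = 0.00737), and it did not pass without Confine replicate 2 (adjusted p = 0.0503) or Confine replicate 3 (adjusted p = 0.117).

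The remaining FOXO targets that passed as higher were Insr, Txnip (1.02), Trib2 (1.05), Fbxo32 (0.91), Klf6 (0.76) and Cdkn1b (0.73, adjusted p = 0.0291), on the log2 scale, and Sesn1 (-0.87) and Sesn3 (-1.20), the sestrin genes, were lower. The call of Txnip was lost without Confine replicate 3 (0.79, adjusted p = 0.143) and that of Klf6 without Confine replicate 2 (0.67, adjusted p = 0.0570). Sesn1 did not pass without Confine replicate 2 (-0.73, adjusted p = 0.176) or Confine replicate 3 (-1.02, adjusted p = 0.0635). For Cdkn1b the adjusted p was 0.138 without Ctrl replicate 1, 0.0552 without Ctrl replicate 3, 0.133 without Confine replicate 2, 0.144 without Confine replicate 3 and 0.113 with library size alone. Foxo1, Foxo4 and Foxo6 did not pass. Of the whole list, 6 genes passed without Confine replicate 3 and 7 without Confine replicate 2. Akt2, Rictor, Furin, Ccn5, Kazald1, Crim1, Hmga2, Plag1, Igf2bp2, the FOXO targets here other than Insr and the list genes named as not passing other than Irs2 lie outside the naming rule and were chosen after their values were seen.

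**Figure D5:**
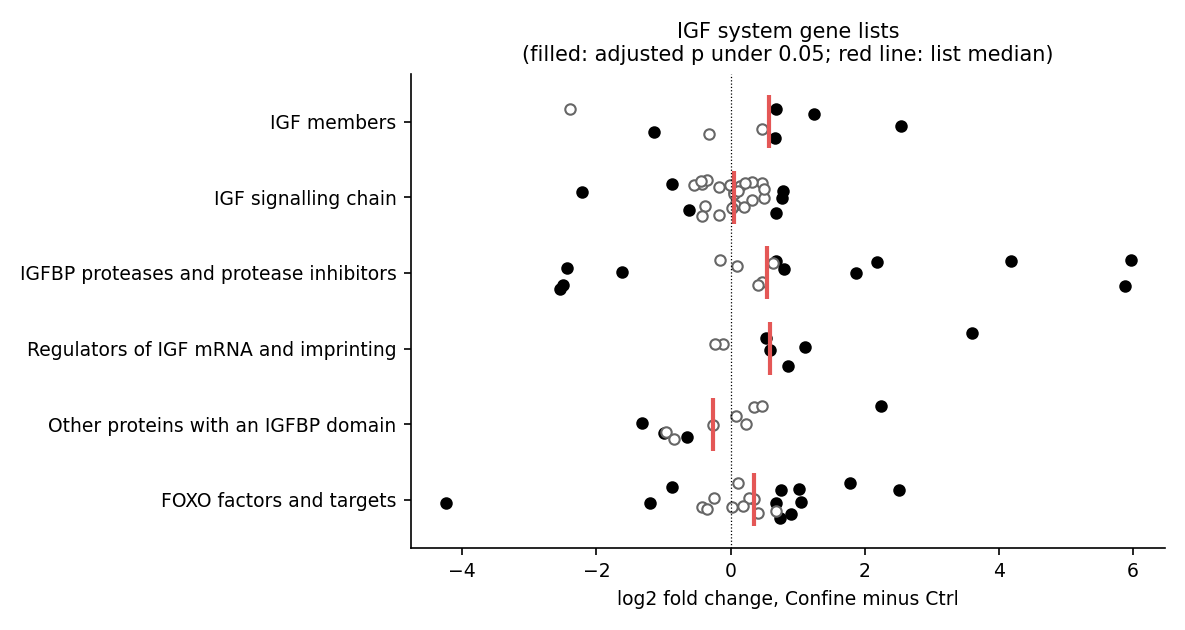
Log2 fold change of Confine over Ctrl for the tested genes of the IGF group and of the 5 further lists, 1 point per gene, filled for an adjusted p under 0.05, with a red line at each list median. The protease list spreads from -2.54 to 5.96, while the signalling chain lies around its median of 0.049.

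Markers of other cell types were low but also differed between the groups. Leukocyte markers (9 genes, 4 tested) summed to 15.9 to 18.2 CPM in Ctrl and 35.8 to 41.3 CPM in Confine. Adgre1 and Cd3e were at 0 and Ptprc had at most 2 counts, and of the tested markers 3 were higher, among them Cd68 and Cd14, and 1, Lyz2, was lower. Epithelial markers (8 genes, 1 tested) summed to 0.414 to 0.793 CPM and 4.02 to 8.77 CPM, with Krt19 at 0.138 to 0.264 CPM in Ctrl and at 3.85 and 8.09 CPM in Confine, and with Epcam, Krt18 and Cldn4 at 0. Krt14 had 1, 3 and 4 counts in Ctrl and 0 in both Confine libraries. Krt8 had 6, 4 and 2 counts in Ctrl and 1 and 17 in Confine. Endothelial markers (7 genes, 1 tested) summed to 0.595 to 1.36 CPM and 2.43 to 2.70 CPM, with Tie1 and Emcn at 0. Pecam1 had 1, 8 and 6 counts in Ctrl and 0 and 3 in Confine, and Kdr 1, 11 and 0 against 0 and 1. Cdh5 and Tek had at most 5 counts in any Ctrl library and 0 in Confine. The tested one, Vwf, had 7, 17 and 7 counts in Ctrl and 72 and 64 in Confine (log2 fold change 2.64, adjusted p = 3.20e-04 by edgeR). Skeletal muscle markers (6 genes, 2 tested) summed to 4.76 to 6.39 CPM and 13.4 to 15.4 CPM, with Myod1 at 0. Myog and Myh3 had at most 1 count and Ckm at most 2 counts in any library. Both tested ones passed as higher, Des (log2 fold change 1.43, adjusted p = 2.59e-04 by edgeR) and Acta1 (1.19, adjusted p = 0.0279). Beside the calls of these marker lists, 12.8% of all tested genes were higher and 10.2% lower. Whether any other cell type was present or contributed to the levels of the IGF genes was not tested.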

How the data were processed

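Polyadenylated RNA of MEFs was sequenced by the authors with dUTP-marked second strands. Per the labels, the submitters' processing notes name Trim Galore 0.6.10, HISAT2 2.1.0, SAMtools 1.5, featureCounts and mm10, and raw gene counts were deposited by the authors in 6 columns. The annotation and strand setting of the counting are not given in the sources used here. The deposited identifiers matched GENCODE M21 (GRCm38) for 54587 of 55335 genes with version and 55154 without, which gave names, positions and exon lengths. The repeated Confine column equals the second Confine column of the study's source table in all 1998 genes compared and entered once. The first Confine column of that table is another one (1188 of these genes equal), and that library was not analysed here. The fit therefore used 3 against 2 libraries, although the deposited counts had 3 columns per group.

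Counts were filtered with filterByExpr, scaled by TMM (factors 0.910 to 1.08) and tested by edgeR's quasi-likelihood method (edgeR 4.0.16, R 4.3.3) with group as the only term, on 3 residual degrees of freedom and 14.8 prior ones at the median. p-values were adjusted over 15881 genes. The script was tested on simulated data with 200 changed genes. Alternatives were DESeq2 1.42.0, limma-voom (limma 3.58.1), other scalings and filters, the replicate block, the repeated column as a sample of its own and leaving out each library. Where 1 Confine library was left, it was assumed to vary like Ctrl. The members and lists were chosen with earlier results of these data known. By rule, the text names all IGF genes, the list genes past both cutoffs or otherwise the 3 of lowest adjusted p, Igfbp1, Insr, Irs1, Irs2, Pappa, Stc1, Stc2, H19, Airn, genes overlapping a member, and the 5 genes nearest in profile to the highest member. Columns not used numbered 0. Reads carried no molecular identifiers, so floors describe counting error alone. Some genes of the lists are counted but their values are not reported here.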

Additional observations from a re-analysis of the deposited data

How the results depend on the processing

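Igfbp4 (log2 fold change 2.33 to 2.79) and Igfbp7 (1.03 to 1.40) kept their direction and their call in all 14 refits with other settings or without 1 library, with adjusted p-values up to 4.17e-05 and 0.00576. Of the 47 genes refitted, all kept their direction wherever tested, except that Igfbp3 ran from -0.93 without Confine replicate 2 to 0.082 without Confine replicate 3. With library size alone, 2 IGF genes were higher, 10 genes of the signalling chain and 2 of the IGF regulators passed. Of all tested genes, 1444 were higher and 2805 lower with this scaling. With the fold cutoff of 1.5 added, 1 IGF gene was higher and 0 lower, the passing genes numbered 1 in the signalling chain, 1 among the regulators, 1 among the other IGFBP domain genes and 3 in the FOXO list, and 777 tested genes were higher and 494 lower. With the repeated column counted as a sample of its own, 11 genes of the chain passed, and 2690 tested genes were higher and 2456 lower.

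Same-numbered libraries did not deviate together (correlation across 15881 genes -0.053, or 0.052 with the repeated column as number 1), so the numbers were not used as a pairing. With the replicate block, 2 IGF genes were higher and 0 lower (1 at an unadjusted p under 0.05), and 3 genes of the chain and 2 regulators passed. Of all tested genes, 1448 were higher and 1080 lower with this block. Igf1 then had an adjusted p of 0.0554, Igf1r of 0.0762 and Igf2r of 0.147. With the block and the repeated column as number 1, 2 IGF genes were lower, the second being Igfbp2 (adjusted p = 0.0325). Of all tested genes, 2640 were higher and 2293 lower in that fit.

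Leaving out each library in turn gave 2 to 4 higher and 0 to 2 lower IGF genes, 1 to 8 passing genes in the chain, 10 to 12 among the proteases, 2 to 5 among the regulators, 3 to 6 among the other IGFBP domain genes and 6 to 11 in the FOXO list. Tested genes numbered 1196 to 2411 higher and 850 to 2015 lower, and the log2 difference of the summed IGFBP level was 0.73 to 0.92. With 2 Confine libraries, the calls of both receptors and of Igf1 depended on single libraries, and Igf2 and Igfbp5 were under the floor of 3 counts.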

Other observations

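Over the 5 libraries, the profile of Igfbp6, the IGF gene with the highest level per kb, was most like that of Syt8, 2610307P16Rik, Nmrk1, Spaca6 and Hectd4. The root mean square distance of the centred log2 profiles (0.1 added to the CPM) was 0.037, 0.041, 0.042, 0.047 and 0.055. With 5 libraries in 2 groups, many genes share such a profile.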
